A study of Mus musculus with 2 samples.

Results

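Cdkn1a and 9 other genes of the p53 pathway were examined in mouse liver with and without Tmprss6, to ask whether the other p53 genes differ between the animals in the way Cdkn1a does. The members were taken as all probe sets that the array annotation maps to Cdkn1a, Trp53, Mdm2, Ccng1, Bax, Btg2, Gadd45a, Sesn1, Sesn2 or Zmat3 alone. This gave 18 probe sets for 8 of the 10 genes, out of 34958 probe sets for 18193 named genes. No probe set named Trp53 or Bax alone in the annotation used here, which does not list 9211 of the 45101 probe sets, so their signals were not analysed here and only their start regions are shown. The list was chosen by the high Cdkn1a signal of the Tmprss6-deficient liver on these same arrays, so the Cdkn1a values below are a description and not a test.

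RNA from 1 Tmprss6-deficient and 1 control liver was hybridised to Affymetrix whole-genome mouse arrays, 1 array per animal. The first animal is labelled Tmprss6-/-, made by gene targeting, and the genotype of the control is not stated further in the labels. Both were males aged 3 months of the 129Sv/C57BL6 strain, fasted overnight. Tmprss6 encodes matriptase-2, a serine protease of the hepatocyte surface that lowers hepcidin production. Each genotype has a single array, so no test or replicate error exists, the number of arrays limits the precision, and what follows describes these 2 animals.

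The protein p53 is a transcription factor that is held at a low level by the ubiquitin ligase Mdm2. DNA damage and other stresses release it, and it then binds paired copies of a short half-site near its target genes. The targets stop the cell cycle, repair DNA, set off cell death or adjust metabolism, and Mdm2 is itself a target, which closes a feedback loop. In liver, p53 targets respond to genotoxic injury and to some metabolic states, fasting among them. Cdkn1a, which encodes the cyclin-dependent kinase (CDK) inhibitor p21, is also controlled by factors other than p53.

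The start regions of the genes are shown first, searched for the half-site that p53 is known to bind. RefSeq windows on GRCm38.p6, from 250 bases before to 50 bases after an annotated start, were found for 9 of the 10 genes, in 11 windows. Cdkn1a has 2 annotated starts, 2790 bases apart on the plus strand. The 250 bases before each are given 5′ to 3′. In the first, at chr17:29090729-29090978, capitals mark matches to the 10-base p53 half-site consensus and an adjoining 20-base site. In the second, at chr17:29093519-29093768, which holds no half-site, capitals mark the sequence GGGCGG, searched on both strands.
Cdkn1a first start: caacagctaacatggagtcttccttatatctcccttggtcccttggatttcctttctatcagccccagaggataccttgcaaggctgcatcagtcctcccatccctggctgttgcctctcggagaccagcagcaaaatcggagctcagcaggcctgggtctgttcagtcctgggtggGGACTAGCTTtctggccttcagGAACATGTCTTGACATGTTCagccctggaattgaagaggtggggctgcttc
Cdkn1a second start: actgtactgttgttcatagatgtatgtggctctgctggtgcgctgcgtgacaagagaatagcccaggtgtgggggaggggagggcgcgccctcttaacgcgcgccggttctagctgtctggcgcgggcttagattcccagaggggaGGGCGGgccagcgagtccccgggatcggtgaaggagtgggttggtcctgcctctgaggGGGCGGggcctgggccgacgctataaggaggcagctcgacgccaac

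The half-sites in the first Cdkn1a window begin 73 and 51 bases before the start, with a spacer of 12 bases. A pair of exact half-sites up to 13 bases apart was found in 1 of the 11 member windows, this one, and in 0.0731% of all 32851 windows. The later half-site also opens a 20-base run that differs from 2 adjoining half-sites at 1 position. Such runs, with at most 1 mismatch, were in 0.0883% of all windows and in 2 member windows, those of Cdkn1a and Ccng1. The sequence GGGCGG was in 8 of the 11 member windows and in 35.7% of all windows.

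At least 1 exact half-site was in 7 of the 11 member windows, in 7 of 9 genes, against 8.36% of all windows. Each is given here on its gene's strand as a run of 30 bases with the half-site, or for Ccng1 the adjoining 20-base site, in capitals. The runs are at chr11:40755457-40755486 (minus strand) for Ccng1, chr10:117710925-117710954 (minus) for Mdm2, chr6:67037428-67037457 (minus) for Gadd45a, chr10:41887256-41887285 (plus) for Sesn1, chr7:45467080-45467109 (minus) for Bax and chr11:69580274-69580303 (plus) for Trp53.
Ccng1: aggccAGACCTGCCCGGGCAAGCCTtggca
Mdm2: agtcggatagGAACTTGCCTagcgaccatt
Gadd45a: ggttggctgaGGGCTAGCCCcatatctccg
Sesn1: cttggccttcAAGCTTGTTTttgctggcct
Bax: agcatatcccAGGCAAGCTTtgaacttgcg
Trp53: acccacggaaGGACTTGCCCttacttgtta

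The windows of Btg2 and Sesn2, and the other window of Sesn1, held no exact half-site. A match is a description of letters and shows no binding, and a window without one says nothing of p53 acting elsewhere near the gene. On the brightest probe set, members with a half-site include both the largest difference below, that of Cdkn1a, and those of Mdm2, Ccng1 and Sesn1, short of 1.5-fold. Another set of Ccng1 was 1.65-fold higher and another of Sesn1 1.58-fold lower.

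The check of the labels was the targeted gene. Tmprss6 had a signal of 88.1 in the Tmprss6-deficient and 1868 in the control liver, which is 21.2-fold lower. Signals below a floor of 17.8, the median of all probe sets, were treated as not measured. The hepatocyte markers identified both samples as liver, with a summed signal over 8 of 8 genes of 130633 in the Tmprss6-deficient and 140159 in the control liver. In the Tmprss6-deficient liver, marker signals summed to 1322 over 5 Kupffer cell, 712 over 5 endothelial, 2313 over 5 stellate, 255 over 3 erythroid, 41.3 over 4 cholangiocyte, 49.6 over 5 T or NK cell, 68.0 over 3 B cell and 151 over 4 neutrophil genes. The same sums in the control liver were 1837 for Kupffer cell, 599 for endothelial, 1928 for stellate, 671 for erythroid, 100.5 for cholangiocyte, 55.7 for T or NK cell, 44.3 for B cell and 142 for neutrophil genes. Of these markers, Cd3e, Cd3g, Cd2 and Sox9 were below the floor on both arrays. The sums include signals below the floor, and all 4 cholangiocyte genes were below it in the Tmprss6-deficient liver. Of the 5 Kupffer cell genes 2 were higher and 3 lower, and of the 5 endothelial genes 4 were higher and 1 lower. Single genes weighed heavily: Lyve1 read 152 in the Tmprss6-deficient and 32.3 in the control liver, and Alas2 232 in the Tmprss6-deficient and 593 in the control liver. Fewer cells of a type and less RNA per cell cannot be told apart in whole liver, and the part of these cell types in the results was not tested.

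Cdkn1a stood far from the other members. On its brighter probe set, 1424638_at, the signal was 970 in the Tmprss6-deficient and 223 in the control liver. That is 4.34-fold higher, or 2.12 on the log2 scale. On 1421679_a_at the signal was 109 in the Tmprss6-deficient liver and 3.1, below the floor, in the control, at least 6.15-fold higher. Both probe sets thus pointed the same way, and the log2 ratio on the brighter one compares with a spread between probe sets of 1 gene (SD) of 0.32 at signals of 256 to 1024. Among the 10243 genes that both arrays measured, Cdkn1a ranked 16th from the highest ratio, and 0.185% of these genes were 4-fold or more higher.

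**Figure D1:**
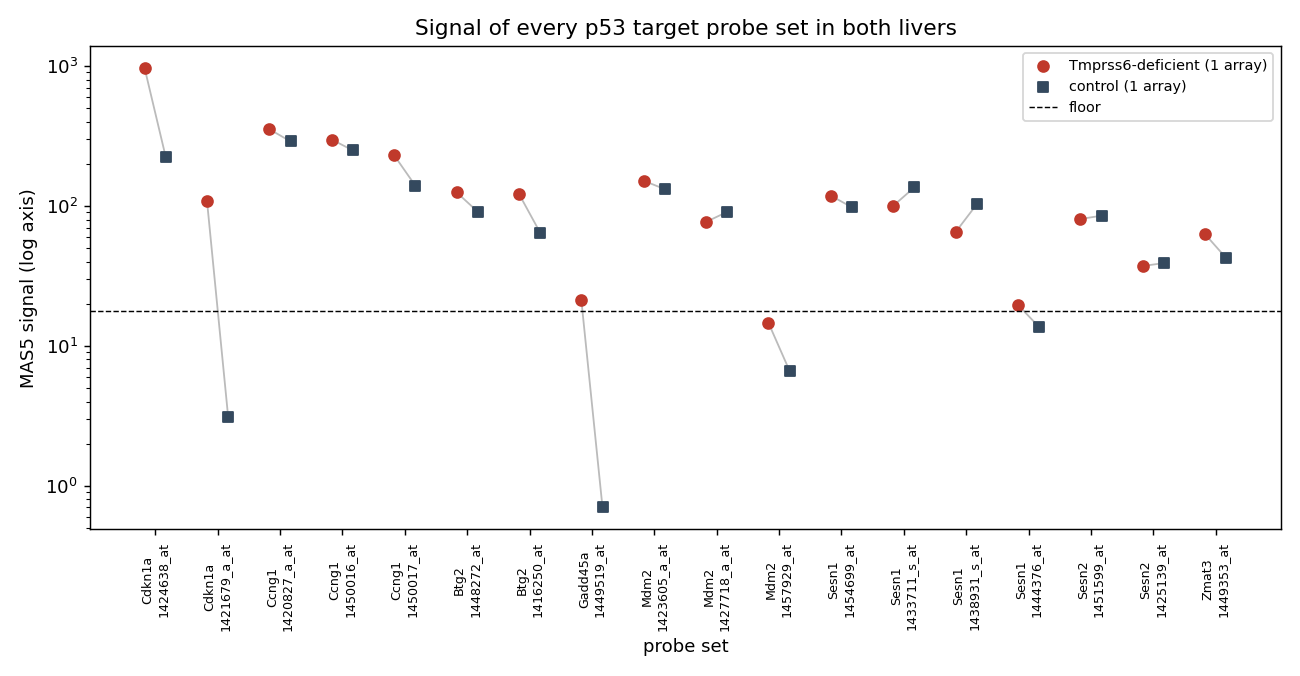
MAS5 signal (log axis) of all 18 probe sets of the 8 measured genes, with a circle for the Tmprss6-deficient and a square for the control array, joined by a line, and the floor of 17.8 as a dashed line. The 2 Cdkn1a sets differ most among the sets that reach a signal of 100 on either array, while the Mdm2, Sesn1 and Sesn2 pairs lie close together or run in both directions.

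None of the other 7 measured members was seen to pass 1.5-fold in either direction on its brightest probe set. Gadd45a is known only as a bound, at least 1.20-fold higher, and could lie past 1.5-fold. The log2 ratios of the 6 measured on both arrays ran from -0.44 for Sesn1 to 0.57 for Zmat3. Counted with Cdkn1a, 1 of 8 genes was higher by at least 1.5-fold, against 8.86% of the 12243 genes that either array measured, and 0 were lower by that much, against 9.20%. The log2 ratio was above 0 for 6 of the 8, against 49.5% of all genes. The median log2 ratio was 0.28 over the 8 and 0.27 without Cdkn1a, against -0.0050 over all genes. Gadd45a enters at its bound, which is itself the median without Cdkn1a; with Gadd45a left out as well, that median was 0.25. Because the list was drawn up from this comparison, these counts describe it and nothing is read from them.

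Taken set by set, 14 of the 18 member probe sets were above the floor on both arrays, 3 only in the Tmprss6-deficient liver, 0 only in the control and 1 on neither. Of the 17 measured sets, 12 were higher, against 52.3% of all measured probe sets, and 5 lower. By 1.5-fold or more, 4 were higher (the 2 of Cdkn1a and 1 each of Ccng1 and Btg2), against 11.3% of all probe sets, and 1 was lower (Sesn1), against 8.83%. Of 6 genes with at least 2 measured sets, Mdm2 and Sesn1 had sets of opposite direction.

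Ccng1 encodes cyclin G1, which takes part in the feedback between p53 and Mdm2. Its probe sets read 354 in the Tmprss6-deficient and 289 in the control liver on 1420827_a_at, 299 in the Tmprss6-deficient and 249 in the control liver on 1450016_at, and 230 in the Tmprss6-deficient and 140 in the control liver on 1450017_at. All 3 were higher, by 1.22-fold, 1.20-fold and 1.65-fold, the last with a log2 ratio of 0.72 against a probe set SD of 0.37 at signals of 64 to 256.

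Btg2 encodes an antiproliferative protein that promotes removal of poly(A) tails from mRNA. It read 125 in the Tmprss6-deficient and 90.9 in the control liver on 1448272_at, which is 1.38-fold higher. On 1416250_at it read 122 in the Tmprss6-deficient and 64.5 in the control liver, which is 1.89-fold higher. Both sets thus read higher, and the second passed 1.5-fold.

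Gadd45a encodes a small protein that binds Pcna and p21 and activates stress kinases. On its 1 probe set it read 21.4 in the Tmprss6-deficient and 0.7 in the control liver. It was just above the floor on the first array and below it on the second, so that only a bound can be given, at least 1.20-fold higher.

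Mdm2, the inhibitor of p53 and a target of it, showed no common direction. It read 151 in the Tmprss6-deficient and 132 in the control liver on 1423605_a_at, which is 1.15-fold higher. On 1427718_a_at it read 76.9 in the Tmprss6-deficient and 90.8 in the control liver, which is 1.18-fold lower. On 1457929_at it was below the floor on both, at 14.6 in the Tmprss6-deficient and 6.6 in the control liver. The measured differences lay within the probe set SD of 0.37 on the log2 scale.

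The sestrins, stress proteins that restrain the growth kinase mTORC1, were not higher together. Sesn1 read 100.2 in the Tmprss6-deficient and 136 in the control liver on 1433711_s_at, and 65.1 in the Tmprss6-deficient and 103 in the control liver on 1438931_s_at, which are 1.36-fold and 1.58-fold lower. On 1454699_at it read 118 in the Tmprss6-deficient and 97.7 in the control liver, which is 1.21-fold higher, and on 1444376_at 19.6 in the Tmprss6-deficient and 13.6 in the control liver, at least 1.10-fold higher. So the 2 sets ending in _s_at, a suffix Affymetrix uses for probes that can match several transcripts, read lower and the other 2 read higher. Sesn2 was nearly level, at 80.7 in the Tmprss6-deficient and 85.2 in the control liver on 1451599_at and 37.2 in the Tmprss6-deficient and 39.1 in the control liver on 1425139_at, or 1.06-fold and 1.05-fold lower.

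Zmat3 encodes a zinc finger protein that binds RNA. Its 1 probe set read 62.7 in the Tmprss6-deficient and 42.2 in the control liver. This is 1.49-fold higher, just inside 1.5-fold, with a log2 ratio of 0.57 against a probe set SD of 0.46 at that signal.

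**Figure D2:**
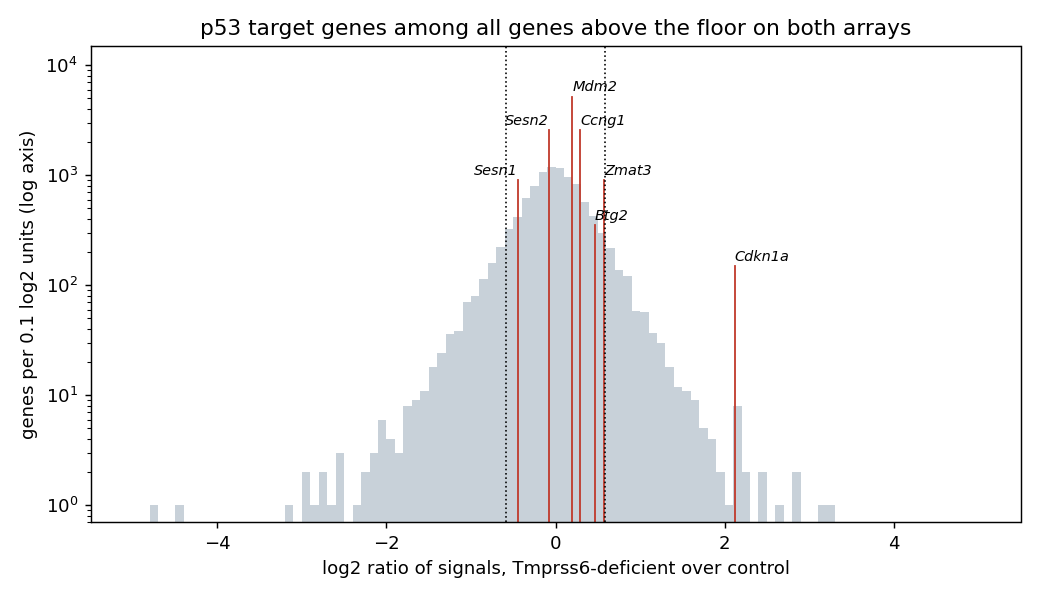
Histogram of the log2 ratio, Tmprss6-deficient over control, of the 10243 genes that both arrays measured (gene counts on a log axis), with red lines at the 7 members measured on both and dotted lines at 1.5-fold; the height of a red line only places its label. Cdkn1a, at 2.12, lies in the far right tail, and the other 6 lie between -0.44 and 0.57.

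A wider list of 45 textbook p53 targets outside the members gave differences in both directions around a median log2 ratio of 0.0053. Of these, 42 had a probe set and 31 were measured on either array. By 1.5-fold or more, 6 of the 31 (19.4%) were higher, against 8.86% of all genes, and 5 (16.1%) were lower, against 9.20%. Of the other 20, 15 were measured on both arrays and lay within 1.5-fold. The other 5 (Apaf1, Pidd1, Dram1, Thbs1 and Ak1) were below the floor in the Tmprss6-deficient liver on the brightest set. Their bounds were short of 1.5-fold lower, that of Pidd1 by less than rounding. Another Thbs1 set read 17.8, at the floor, in the Tmprss6-deficient and 12.2 in the control liver. With the floor at the 30th percentile, 12 of 38 measured targets were 1.5-fold or more lower, against 15.7% of all genes. At that floor 8 were higher by as much, against 15.9%. The remaining 11 on the array, among them Pmaip1 and Eda2r, were below the floor in both livers.

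Among the targets that read higher, Sco2, a cytochrome c oxidase assembly factor, read 1756 in the Tmprss6-deficient and 849 in the control liver, 2.07-fold higher. The death receptor gene Fas read 186 in the Tmprss6-deficient and 100.2 in the control liver, 1.86-fold higher. Bbc3, which encodes the cell death protein PUMA, read 126 in the Tmprss6-deficient and 72.1 in the control liver, 1.75-fold higher. Each of these had 1 measured probe set. The nuclease gene Aen read 159 in the Tmprss6-deficient and 93.0 in the control liver, 1.71-fold higher, with another set at 1.42-fold higher and 2 dim sets in opposite directions. Rrm2b, a ribonucleotide reductase subunit, was 1.52-fold higher at a dim signal of 43.0 in the Tmprss6-deficient and 28.3 in the control liver, and Phlda3, an inhibitor of Akt, was at least 1.54-fold higher, at 27.5 in the Tmprss6-deficient and 13.5 in the control liver.

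Among those that read lower, the kinase gene Plk3 read 89.1 in the Tmprss6-deficient and 224 in the control liver, 2.52-fold lower. Bid, a cell death protein gene, read 25.4 in the Tmprss6-deficient and 61.6 in the control liver, 2.43-fold lower. Trp53inp1, which encodes a protein that promotes p53 activity and autophagy, read 1462 in the Tmprss6-deficient and 2798 in the control liver on its brighter set, 1.91-fold lower, and was 1.17-fold lower on the other. The DNA damage recognition gene Ddb2 was 1.52-fold lower, at 36.3 in the Tmprss6-deficient and 55.1 in the control liver, and 1.13-fold lower on its other set. The phosphatase gene Ppm1d, a feedback inhibitor of p53, read 34.0 in the Tmprss6-deficient and 76.0 in the control liver on one set, 2.24-fold lower, and 55.8 in the Tmprss6-deficient and 27.7 in the control liver on the other, 2.01-fold higher. With its sets in disagreement, Ppm1d has no settled direction.

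**Figure D3:**
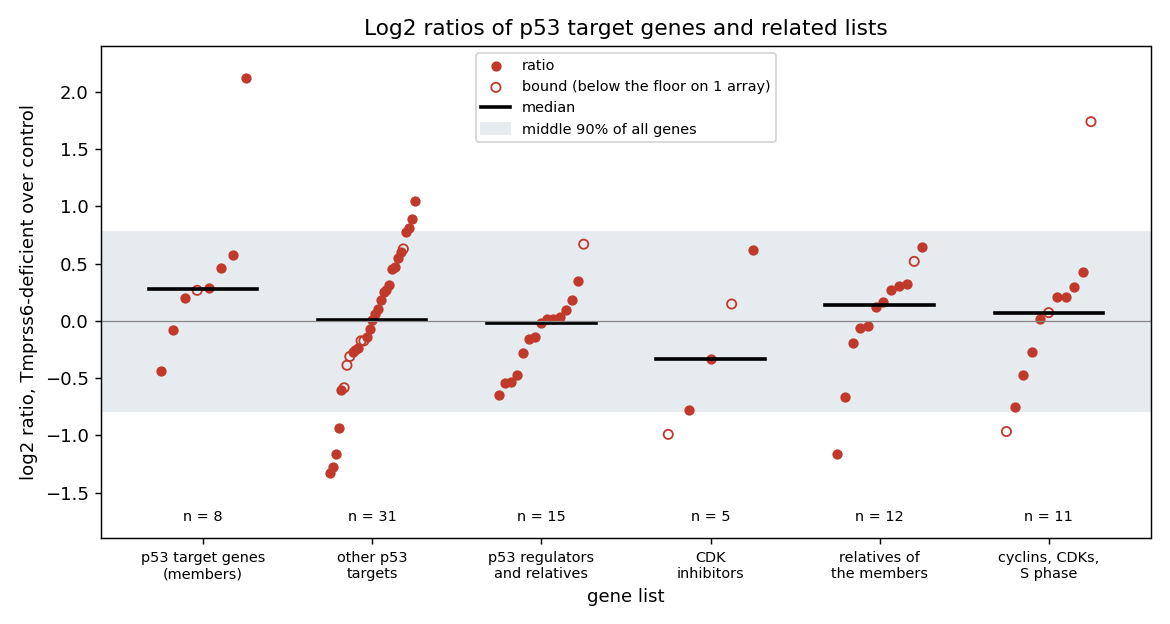
Log2 ratio, Tmprss6-deficient over control, of each measured gene (filled circle, ratio; open circle, bound) in 6 gene lists, with each list's median as a black bar and the middle 90% of all genes, from -0.79 to 0.77, shaded. Cdkn1a is the point at 2.12 in the first list, and the other targets spread on both sides of 0.

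The median log2 ratio of 15 measured regulators and relatives of p53 was -0.023. Of the 15, 1 passed 1.5-fold upward and 1 downward, against 8.86% and 9.20% of all genes. Prkdc, a DNA damage kinase gene, read 30.7 in the Tmprss6-deficient and 48.0 in the control liver, 1.56-fold lower. Trp73, a p53 relative, was at least 1.59-fold higher at a dim 28.3, against 3.0 in the control. Mdm4, the partner of Mdm2, was nearly level at 102 in the Tmprss6-deficient and 100.6 in the control liver. The damage kinase gene Atm read 57.5 in the Tmprss6-deficient and 83.7 in the control liver, a log2 ratio of -0.54, with both of its sets lower.

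Other CDK inhibitor genes read higher in some cases and lower in others. The nearest relatives of Cdkn1a are Cdkn1b, which encodes p27, and Cdkn1c, which encodes p57. Cdkn1b read 87.6 in the Tmprss6-deficient and 110.1 in the control liver, a log2 ratio of -0.33. Cdkn1c read 13.0 in the Tmprss6-deficient and 35.4 in the control liver, at least 1.99-fold lower. Cdkn2c was 1.53-fold higher (77.2 in the Tmprss6-deficient and 50.4 in the control liver), Cdkn2d 1.72-fold lower (21.8 in the Tmprss6-deficient and 37.5 in the control liver), and Cdkn2a was below the floor on both arrays. Of the 5 measured, 1 passed 1.5-fold upward and 2 downward, against 8.86% and 9.20% of all genes, with a median of -0.33.

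Relatives of the other members also went both ways. Of 12 measured, 1 passed 1.5-fold upward and 2 downward, against 8.86% and 9.20% of all genes, around a median of 0.14. Ccng2, which encodes cyclin G2, read 628 in the Tmprss6-deficient and 401 in the control liver, 1.57-fold higher, with its other set 1.38-fold higher. Gadd45g read 209 in the Tmprss6-deficient and 468 in the control liver, 2.24-fold lower, and the antiproliferative gene Tob1 read 857 in the Tmprss6-deficient and 1363 in the control liver, 1.59-fold lower. Gadd45b read 166 in the Tmprss6-deficient and 174 in the control liver on its brightest set, 1.05-fold lower, and was 1.35-fold and 1.63-fold higher on its other sets, so that its sets were in disagreement.

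Cyclins, CDKs and S phase genes, which p21 restrains through its partners, had a median of 0.071 over the 11 measured, of which 1 passed 1.5-fold upward and 2 downward, against 8.86% and 9.20% of all genes. Ccne1, the gene of cyclin E1, was at least 3.34-fold higher on one set (59.4 in the Tmprss6-deficient and 11.8 in the control liver), while its other set read 24.4 in the Tmprss6-deficient and 29.2 in the control liver, 1.20-fold lower. Cdk6 read 115 in the Tmprss6-deficient and 193 in the control liver, 1.68-fold lower on the brightest of 3 sets. Another set read 126 in the Tmprss6-deficient and 150 in the control liver, 1.19-fold lower, and a dim set went in the opposite direction. Mcm3 was at least 1.96-fold lower on its 1 measured set (11.0 in the Tmprss6-deficient and 34.8 in the control liver). Its other sets were below the floor on both arrays. Pcna, a DNA polymerase clamp gene that is also a p53 target, read 361 in the Tmprss6-deficient and 434 in the control liver, a log2 ratio of -0.27. The proliferation genes Mki67, Top2a, Ccna2 and Cdk1 were below the floor in both livers.

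Sesn2 is also a target of the amino acid response factor ATF4. The 8 measured ATF4 targets had a median of -0.078, and 2 passed 1.5-fold upward and 1 downward, against 8.86% and 9.20% of all genes. Asns, which makes asparagine, was 1.87-fold higher (324 in the Tmprss6-deficient and 174 in the control liver), Chac1, which breaks down glutathione, was 1.72-fold higher (63.8 in the Tmprss6-deficient and 37.0 in the control liver), and the serine synthesis gene Phgdh was 1.85-fold lower on one set (38.4 in the Tmprss6-deficient and 70.9 in the control liver) and 1.42-fold higher on another.

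The genes whose difference was most like that of Cdkn1a were sought among 2569 genes measured on both arrays with a mean signal within 2-fold of its own, by distance in log2 ratio. With 2 arrays this likeness rests on 1 ratio per gene. The nearest was Mfsd2a, a lipid transporter gene, with 1297 in the Tmprss6-deficient and 302 in the control liver, 4.30-fold higher. Next came Lcn2 (3.13-fold), the arrestin family gene Arrdc3 (6.18-fold), the acyltransferase gene Acnat2 (3.03-fold) and the acute-phase gene Orm2 (2.90-fold). None of the 5 is on the lists of p53 targets used here. Those lists have 8 and 42 genes with a probe set among 18193 named genes. An overlap was therefore unlikely, and nothing is read from its absence.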

How the data were processed

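Liver RNA of 1 Tmprss6-deficient and 1 control mouse was measured, grouped by sample titles. The authors deposited an intensity for every probe set on a linear scale from 0 to 42541; MAS5 made them, per the submitters' processing notes, with settings that the sources used here do not give. Detection calls and scanner files were not used here. Names came from the platform annotation, and 34754 of 34958 gene identifiers were found in the RefSeq table of GRCm38.p6.

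Arrays were scaled to the same mean without the lowest and highest 2% (100.0 on each as deposited), signals below 17.8 were set to it, and log2 taken. The brightest probe set stands for a gene. Where a single array passed that floor, only a bound against it is given. The probe set SD comes from how far a gene's 2 brightest sets differed in log2 ratio, divided by the square root of 2. Over 4367 genes it was 0.37, and it leaves out variation between animals. The steps were tested on data simulated from the control array, with known folds given to brighter genes above the floor on both arrays. Bounds, dim genes and variation between animals were not covered by it. Python 3.11.15, numpy 2.4.6, pandas 2.3.3 and statsmodels 0.14.6 were used.

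The members and lists were chosen with earlier results of these data known. Named genes are all members, Tmprss6, up to 6 genes of each list at 1.5-fold or more, and the 5 nearest to Cdkn1a. Pmaip1, Eda2r, Apaf1, Pidd1, Dram1, Thbs1, Ak1, Mdm4, Atm, Cdkn1b, Cdkn2a, Gadd45b, Pcna, Mki67, Top2a, Ccna2, Cdk1, Lyve1 and Alas2 were named after their values were seen, as were the neighbours of Cdkn1a.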

Additional observations from a re-analysis of the deposited data

How the results depend on the processing

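Cdkn1a kept a log2 ratio of 2.03 to 2.37 under all 10 alternatives (other scalings, floors, a pseudocount and probe set choices), and the median of the members other than Cdkn1a stayed between 0.22 and 0.29. Several alternatives, such as the other floors and no further scaling, left Cdkn1a at exactly 2.12. They could not change the ratio of a bright set on arrays deposited at the same scale. With the floor at the 30th percentile or as a pseudocount, 2 of 8 members were 1.5-fold or more higher, since Gadd45a came to a log2 ratio of 1.65 or 1.08. With the mean of all probe sets it was also 2 of 8, since Btg2 came to 0.69. The shares of all genes higher by that much were 15.9%, 8.02% and 7.94% in the same order. Sesn1 had 0.28 with plain probe sets only, opposite to its brightest set, and Mdm2 had -0.020 with the mean of all sets. Among the other p53 targets, 12 of 38 were 1.5-fold or more lower with the floor at the 30th percentile, against 15.7% of all genes. With it at the 70th, 2 of 20 were, against 6.27%, and with the mean of all sets 2 of 31, against 7.66%. The counts higher were 8, 4 and 5 in the same order, against 15.9%, 5.34% and 7.94% of all genes. The median of these targets was 0.099 when a gene had to be measured on both arrays. Gadd45a gave no value with the floor at the 70th percentile or under that last setting, and Mdm2 none with plain sets. No paired analysis was possible because each genotype has 1 array. Signals near the floor of 17.8 limit what can be said of Gadd45a, Phlda3 and other dim genes.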

Other observations

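Genes that lie beside Cdkn1a on chromosome 17 differed less than it did. The 10 nearest measured genes, 5 on each side, had a median log2 ratio of 0.011 and a range from -0.72 to 0.84. Of the 10, 2 passed 1.5-fold upward and 1 downward, against 8.86% and 9.20% of all genes. Cdkn1a was chosen for its high signal, so the contrast with its neighbours is a description only. The adjoining splicing factor gene Srsf3 read 455 in the Tmprss6-deficient and 513 in the control liver. Cpne5, on the other side, read 60.5 in the Tmprss6-deficient and 33.9 in the control liver, 1.78-fold higher. Pim1, which encodes a kinase that phosphorylates p21, read 188 in the Tmprss6-deficient and 129 in the control liver, a log2 ratio of 0.54. The chromatin gene Brpf3 was 1.71-fold higher, and Ppil1 was 1.65-fold lower.

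Of the 34 wider p53 targets with a RefSeq start window, 9 had an exact half-site in at least 1 window. Of their 49 windows, 10 held one (20.4%), against 8.36% of all windows. Runs of adjoining half-sites with at most 1 mismatch were in the windows of Rps27l, 117 bases before the start, and Gtse1, across the start. Rps27l, a ribosomal protein gene, read 3480 in the Tmprss6-deficient and 3350 in the control liver on the brightest of 3 measured sets, with the other two lower, and Gtse1, which encodes a microtubule-bound inhibitor of p53, was below the floor on both arrays.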
